A study of Mus musculus with 6 samples.

Results

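The cells described here are the Arg1-low monocytes of the mouse brain, 975 of 57215 kept cell barcodes (164 of 26717 in sham and 811 of 30498 in MCAO libraries). They were chosen by measured values. A barcode needed at least 300 detected genes and at most 10% mitochondrial counts. It then needed at least 4 unique molecular identifiers (UMIs, one per captured RNA molecule) over Plac8, Ccr2, Ly6c2 and Ms4a4c together, and at most 1 UMI of Arg1. Upper limits were set to reduce other cells. They covered dendritic cell genes (Flt3, Cd209a, Xcr1 and Clec9a, 1 UMI together) and lymphocyte genes (Cd3e, Cd3d, Cd3g, Nkg7 and Cd79a, 1 UMI). They also covered endothelial genes (Cldn5 and Flt1, 2 UMIs) and microglial genes (P2ry12, Tmem119 and Siglech, 2 UMIs). The sum of S100a8 and S100a9 had to stay under 50 UMIs. Some members still held RNA of other cell types, as given below. Values of these 21 genes are given as a description and were not tested. Single cells came from brains of C57BL/6 mice, with ages of 6 to 8 weeks, taken 24 h after middle cerebral artery occlusion (MCAO, a surgical model of ischemic stroke) or after a sham operation, in 3 droplet libraries each. No genotype, transgene, drug or sex is given in the labels, so strain, age range, organ and time were the same in both groups as far as the labels say. Hemisphere and region are not given either, and the treatment label reads MCAO1 for all 3 MCAO samples, which may name the treatment or a shared source. The labels do not say whether a library came from 1 animal, so the spread between libraries may be technical in part.

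Monocytes are made in the bone marrow and circulate in the blood. Classical monocytes carry much Ly6C and the chemokine receptor CCR2, which guides them toward CCL2 in injured tissue, and nonclassical monocytes carry little Ly6C, depend on the factor NR4A1 and patrol vessel walls. After a stroke, classical monocytes enter the ischemic brain, where they can take on inflammatory or macrophage-like states, and arginase 1 (Arg1) marks one of those states.

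Lyz2 (lysozyme) averaged 16463 CPM in sham and 15227 in MCAO members, against 716 and 1524 in all other barcodes, and Tyrobp (a myeloid signalling adaptor) 2951 and 3426, against 878 and 1140.4. A Lyz2 UMI was held by 91.1% to 97.3% of members per library. The markers of the rule were spread unevenly. A Ccr2 UMI was found in 57.9% to 69.4% of sham and 65.5% to 68.4% of MCAO members. A Ly6c2 UMI was found in 45.6% to 50% of sham and 56.3% to 59.9% of MCAO members. The order for Ly6c2 depended on depth. With each member thinned to an equal number of UMIs, as for MHC class II below, 40.4% to 43.5% of sham members held Ly6c2. In the MCAO libraries 35.1% to 39.7% did, so the order reversed without overlap. The Ccr2 shares still overlapped after thinning, at 29.8% to 46.7% in sham and 31.2% to 36.9% in MCAO. A library held 25135690 to 42848023 UMIs in all, and the members of a library 191826 to 277528 in sham and 1148556 to 1205895 in MCAO. The median member had 4041 to 4508 UMIs in sham and 3798 to 5046 in MCAO libraries. No library was left out. Pairs of libraries shared 77 to 184 barcode sequences, of which 2 were members in both.

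Arg1-low monocytes were more frequent in the MCAO libraries. They made up 0.722%, 0.539% and 0.583% of the kept barcodes in the 3 sham libraries (62, 45 and 57 barcodes) and 2.56%, 2.59% and 2.91% in the 3 MCAO libraries (293, 287 and 231). Every MCAO library lay above every sham library, and the widest 95% Wilson intervals, which cover counting error only, were 0.564% to 0.925% in sham 1 and 2.56% to 3.31% in MCAO 3. The mean share was 0.615% ± 0.0957 (SD, n = 3) in sham and 2.68% ± 0.198 in MCAO, a ratio of 4.37. The exact two-sided permutation test gave p = 0.1, the smallest value that 3 against 3 libraries allow. Among barcodes with a UMI of the leukocyte gene Ptprc (CD45) the shares were 3.47% ± 0.666 and 8.87% ± 0.724, a ratio of 2.55.

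Barcodes that met the same limits but held 2 or more Arg1 UMIs were counted in the MCAO libraries (161, 183 and 139, or 1.60% ± 0.179, SD, n = 3) and in none of the 26717 sham barcodes, which allows a share of up to 0.0112% there by counting error alone, with the 3 libraries pooled. In the 3 MCAO libraries 243, 249 and 199 members held 0 Arg1 UMIs and 50, 38 and 32 held 1. Just past the limit, 9, 13 and 12 barcodes held 2 and 4, 5 and 3 held 3, while 148, 165 and 124 held 4 or more. All sham members held 0 Arg1 UMIs except 1 of library 3. Just outside the limit on the 4 markers, barcodes with a sum of 3 numbered 4, 4 and 8 in sham and 26, 25 and 15 in MCAO, against 10, 8 and 6 and 21, 24 and 17 at a sum of 4.

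**Figure D1:**
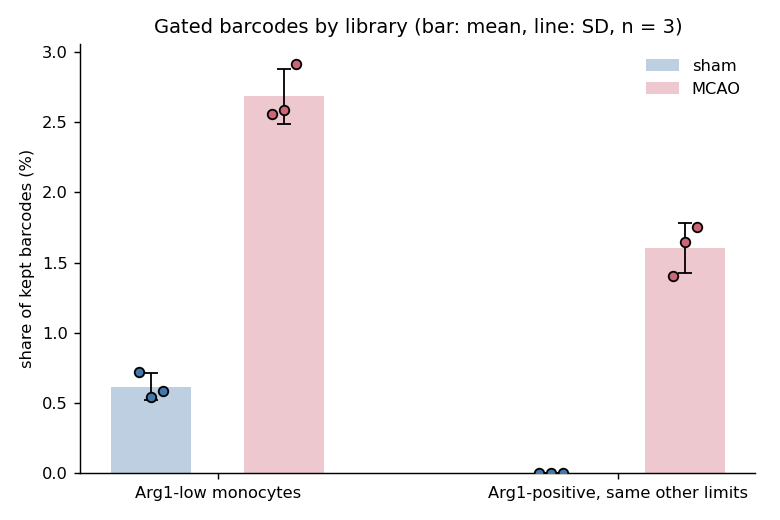
Share of kept barcodes (%, y axis) that were Arg1-low monocytes (left) or met the same limits with 2 or more Arg1 UMIs (right), in sham and MCAO libraries (points: libraries, bars: mean, lines: SD, n = 3). The Arg1-low shares lie between 0.539% and 0.722% in sham and between 2.56% and 2.91% in MCAO, and the Arg1-positive share is 0 in every sham library.

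The genes of the rule themselves differed in level. Levels are counts per 1000000 (CPM) of the summed UMIs of all members of a library. Ly6c2, which encodes the Ly6C antigen of classical monocytes, stood at 2289, 2237.5 and 1731 CPM in sham and 857, 943 and 826 in MCAO. Plac8, a small cysteine-rich protein abundant in classical monocytes, stood at 6150, 4217 and 5932 CPM and 3478, 3665 and 3810.5. Ccr2 was at 644, 713 and 461 CPM in sham and 592, 500 and 517 in MCAO, and Ms4a4c, a tetraspanning membrane protein, at 1259.5, 1323 and 1018 and 1124, 1158 and 982. The groups did not overlap for Ly6c2 and Plac8 and overlapped for Ccr2 and Ms4a4c. These 4 genes chose the members, so the values carry no test.

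Members were not uniform. Grouped by the UMIs they held, 35.0% ± 7.56 of sham and 43.1% ± 1.33 of MCAO members had both Ccr2 and Ly6c2, 29.6% ± 2.61 and 24.2% ± 1.85 Ccr2 only, 12.4% ± 6.39 and 14.8% ± 2.08 Ly6c2 only, and 22.9% ± 3.66 and 17.8% ± 0.693 neither (mean ± SD, n = 3 libraries). The last group passed through Plac8 and Ms4a4c, so the name Ccr2 and Ly6c2 monocyte does not describe every member. A barcode that holds no UMI of a gene may still express it, and the groups were formed without thinning. Members with neither had a library median of 3237 to 3413 UMIs in sham and 2303.5 to 3418 in MCAO. Those with both had 4856 to 5927 and 4183 to 5380.

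The groups with different marker UMIs also differed in genes that the rule did not use. Chil3, a chitinase-like protein of classical monocytes, stood at 3744 ± 1217 CPM in sham members with both markers, and no Chil3 UMI was found in the 49 sham members with Ccr2 only. Hp (haptoglobin) stood at 1006 ± 194 CPM in the former and 8.56 ± 14.8 in the latter. The order was the opposite for MHC class II genes. H2-Aa, an antigen-presenting chain, stood at 12427 ± 2583 CPM in sham members with Ccr2 only and 1211 ± 134 in those with both, and the invariant chain Cd74 at 42044 ± 6198 and 4379 ± 946 CPM. Sham members with Ly6c2 only held the nonclassical genes Ace (angiotensin-converting enzyme, 305 ± 101 CPM) and Eno3 (a muscle-type enolase, 539 ± 55.9), which stood at 28.9 ± 16.0 and 31.0 ± 14.9 CPM in members with both. These levels are uncertain, since sham libraries 1, 2 and 3 held only 7, 3 and 11 members with Ly6c2 only. All sham members together held 39 UMIs of Ace and 80 of Eno3. Members with neither had the highest mean level of Apoe (apolipoprotein E) among the 4 groups in sham, 22580 ± 9962 CPM, although the libraries ranged from 11362 to 30392. The groups were formed from the same barcodes, so no test was made.

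In the MCAO libraries these contrasts were smaller for the genes named. Chil3 was at 3792 ± 1146 CPM in members with both markers and 876 ± 383 in those with Ccr2 only. H2-Aa was at 1874 ± 147 CPM in the former and 5199 ± 461 in the latter, and Cd74 at 8476 ± 508 and 21878 ± 1490. Ace and Eno3 in members with Ly6c2 only were at 64.7 ± 13.9 and 80.8 ± 45.6 CPM. Apoe lay between 5072 ± 101 CPM in members with both and 8133 ± 538 in members with neither. A difference of these contrasts between sham and MCAO was not tested.

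**Figure D2:**
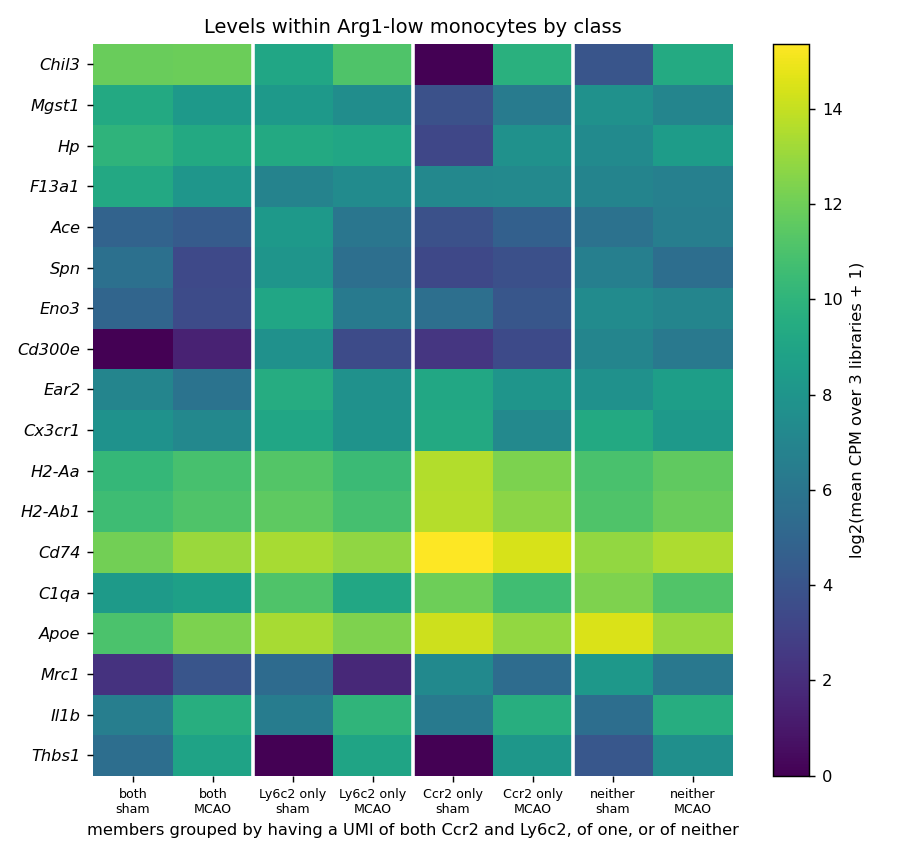
Level of 18 genes (rows; colour: log2 of mean CPM + 1 over 3 libraries) in members that held a UMI of both Ccr2 and Ly6c2, of Ly6c2 only, of Ccr2 only or of neither, in sham and MCAO. Chil3 and Hp are high with both markers, H2-Aa and Cd74 with Ccr2 only, Ace and Eno3 in sham with Ly6c2 only (21 barcodes), and Il1b is higher in MCAO in each of the 4 groups.

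The share of members with MHC class II RNA depended on depth. After each member was thinned to 1000 UMIs, 45.2%, 44.4% and 43.9% of sham and 36.9%, 39.4% and 42.9% of MCAO members held 3 or more UMIs of H2-Aa, H2-Ab1, H2-Eb1 and Cd74 together. Means were 44.5% ± 0.652 and 39.7% ± 3.01 (SD, n = 3), and the libraries did not overlap (exact two-sided permutation p = 0.1, the smallest possible). Without thinning the shares were 55.2% ± 3.57 and 55.2% ± 5.36 (exact permutation p = 1). In endothelial barcodes (5 or more UMIs of Cldn5 and Flt1) thinned the same way the share was 0.434% in sham and 1.19% in MCAO.

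Some members also held RNA of macrophages of the brain's borders (Mrc1, Ms4a7, Pf4 and 5 other markers). In sham 17, 7 and 12 members (27.4%, 15.6% and 21.1%) had 3 or more such UMIs, and in MCAO 21, 20 and 17 (7.17%, 6.97% and 7.36%). Every sham library was above every MCAO library. Values without these barcodes are given beside the genes whose call they change.

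Between MCAO and sham, 541 of 6207 genes tested were higher in Arg1-low monocytes (8.72%) and 482 were lower (7.77%), at an adjusted p under 0.05. The test was edgeR's quasi-likelihood test on the UMIs summed per library, with n = 3 libraries a group. Of these, 299 were at least 2-fold higher and 222 at least 2-fold lower, and the median log2 change of all genes tested was -0.01. The 3 sham and 3 MCAO values did not overlap for 33.6% of the genes tested. Of the gene lists, cytokines and chemokines (11 of 21) and low oxygen and glycolysis (11 of 24) held many genes that rose, and nonclassical monocytes (8 of 14) and the interferon response (11 of 24) many that fell. Sham members were few, so low sham values rest on few molecules. Without sham library 1 the count of lower genes was 321.

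The interleukin 1 system rose as a group of ligand, antagonist and decoy receptor. Il1b, the inflammatory cytokine interleukin 1 beta (chr2:129364570-129371139, mm10), stood at 86.4, 72.3 and 73.6 CPM in the sham and 834, 745 and 923 CPM in the MCAO libraries. All MCAO values were far above all sham values, and the log2 change was 3.42 ± 0.15 (SE, adjusted p = 6.53e-21). A UMI of Il1b was held by 26 of 164 sham and 480 of 811 MCAO members. With every barcode thinned to 1000 UMIs, 34.7% ± 0.531 of MCAO members held one, against 2.57% ± 0.495 of MCAO endothelial barcodes, so this share was above that of background RNA. Within the groups of members by marker UMIs, Il1b stood between 45.7 and 93.3 CPM on average in sham and between 766 and 1074 CPM in MCAO.

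Il1rn, the secreted antagonist of the interleukin 1 receptor (chr2:24336853-24351494), stood at 7.197, 0 and 11.6 CPM in sham and 346, 260 and 219 in MCAO (log2 change 5.29 ± 0.38, adjusted p = 7.31e-10). Il1r2, the decoy receptor that binds interleukin 1 without signalling, stood at 3.60, 20.7 and 11.6 CPM and 233, 179 and 219 (4.23 ± 0.31, adjusted p = 6.92e-14). Il1a, the other interleukin 1 ligand, had no UMI in any sham library and 17.5, 26.6 and 15.6 CPM in MCAO. Taking a floor of 3 UMIs over the sham group, Il1a was at least 2.26 higher on the log2 scale. The groups did not overlap for these 4 genes, which the rule for naming genes required of Il1b, Il1rn and Il1r2. Of all genes tested, 33.6% did not overlap. The sham levels rest on 57 UMIs of Il1b, 5 of Il1rn, 8 of Il1r2 and 0 of Il1a.

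The neighbouring C-type lectin genes Clec4d, Clec4e and Clec4n on chromosome 6 were among the strongest changes. Clec4d (MCL, chr6:123262111-123275265), Clec4e (Mincle, chr6:123281789-123289870) and Clec4n (Dectin-2, chr6:123229843-123247021) encode receptors for glycolipids and mannans of microbes, and Mincle also binds a protein set free by dying cells. Clec4d stood at 3.60, 0 and 3.87 CPM in sham and 272, 245 and 195 in MCAO (log2 change 6.35 ± 0.40, adjusted p = 3.01e-16). Clec4n stood at 10.8, 20.7 and 19.4 CPM and 554, 456 and 415 (4.84 ± 0.24, adjusted p = 1.41e-19). Clec4e stood at 36.0, 56.8 and 46.5 CPM and 426, 307 and 373 (3.02 ± 0.21, adjusted p = 4.94e-15). The groups did not overlap for the 3 genes, which the rule for naming genes required, and 33.6% of all genes tested did not overlap. UMIs were held by 2, 10 and 21 of 164 sham members and by 297, 327 and 386 of 811 MCAO members for Clec4d, Clec4n and Clec4e. Clec4d RNA was 7.45 times and Clec4e RNA 10.8 times as high in MCAO members as in all other MCAO barcodes.

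The 250 bases before the start of Clec4d and Clec4e are shown because these neighbouring genes rose together. They come from RefSeq (GRCm38.p6) and run 5′ to 3′ on the strand of the gene. Clec4d lies at chr6:123261857-123262106 on the plus strand and Clec4e at chr6:123289872-123290121 on the minus strand. Capitals mark a match, on either strand, to the C/EBP motif TTGCNNAA, the AP-1 motif TGANTCA, the NF-kB motif (GGGA, any 3 bases, CCC) or the interferon-stimulated element (GAAA, any 2 bases, GAAA).
Clec4d: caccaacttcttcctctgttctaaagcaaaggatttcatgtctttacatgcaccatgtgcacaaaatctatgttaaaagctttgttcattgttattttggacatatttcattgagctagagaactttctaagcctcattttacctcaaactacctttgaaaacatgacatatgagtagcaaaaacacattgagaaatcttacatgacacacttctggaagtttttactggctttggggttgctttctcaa
Clec4e: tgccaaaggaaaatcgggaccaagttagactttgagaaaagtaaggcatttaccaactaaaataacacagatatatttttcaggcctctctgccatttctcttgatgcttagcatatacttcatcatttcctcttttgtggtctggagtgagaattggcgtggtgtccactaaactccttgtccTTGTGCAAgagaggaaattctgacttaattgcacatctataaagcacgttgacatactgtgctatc
The Clec4e window holds 1 C/EBP match, TTGTGCAA at positions -66 to -59 from the start, which fits the motif on the opposite strand, and the Clec4d window holds no match to the 4 motifs. Of 32851 windows of this length over 27025 genes, 9.56% hold the C/EBP motif, 4.77% the NF-kB motif, 6.75% the AP-1 motif and 2.98% the interferon element. Of the 19 genes of the list for pattern recognition, 14 had a window, and 3 of these (21.4%) held the C/EBP motif and 5 (35.7%) the NF-kB motif. A match is a string of letters and was not tested as a binding site.

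Over the list of pattern recognition and inflammasome genes, 11 of 18 tested rose and none fell (8.72% and 7.77% of all genes), with a median log2 change of 0.62. Cd14, the co-receptor for lipopolysaccharide, stood at 148, 186 and 186 CPM in sham and 1664, 1438 and 1385 in MCAO (3.12 ± 0.12, adjusted p = 1.84e-22). Trem1, which amplifies inflammatory signals, went from 3.69 ± 3.60 to 64.8 ± 9.24 CPM (SD, n = 3; adjusted p = 1.02e-07), and Nlrp3, the inflammasome sensor, from 11.4 ± 3.91 to 42.3 ± 4.24 CPM (adjusted p = 6.79e-04). Fcgr3, an activating antibody receptor, rose less, by 0.73 ± 0.11 on the log2 scale from 462 ± 44.3 to 770.1 ± 9.93 CPM. Trem1, Nlrp3 and Fcgr3 were picked after their values were seen.

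**Figure D3:**
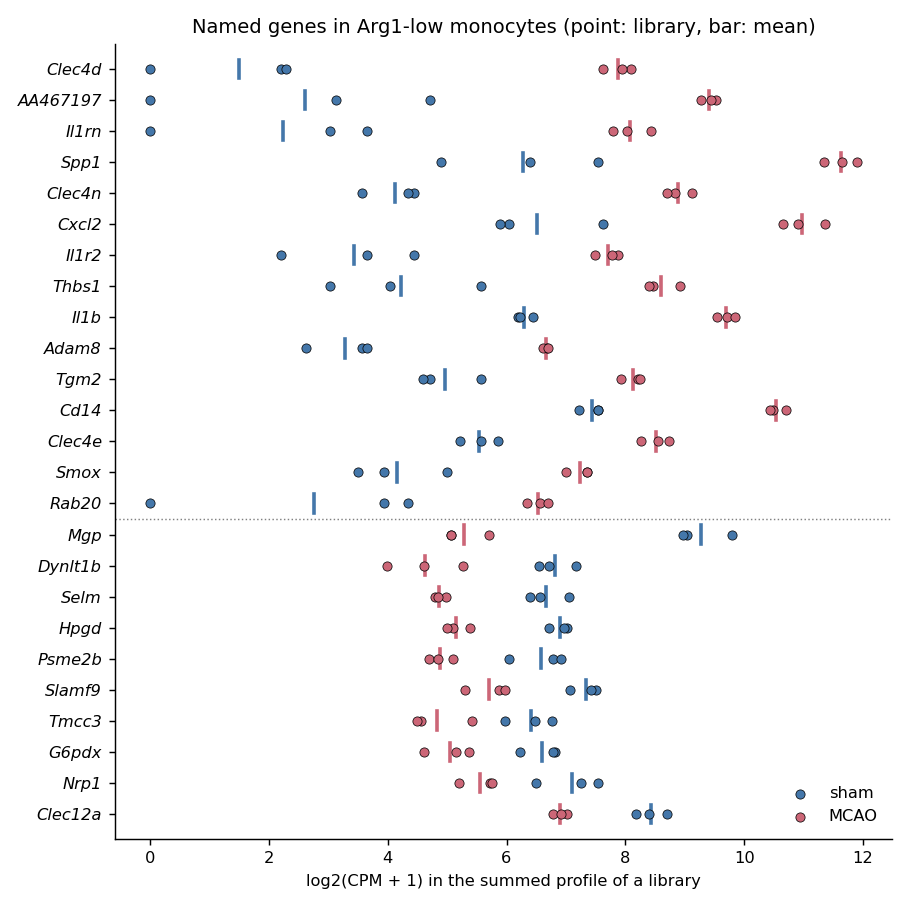
Levels (x axis: log2 of CPM + 1) of the 15 genes with the highest and the 10 with the lowest change by the naming rule in Arg1-low monocytes of 3 sham and 3 MCAO libraries (points: libraries, short bars: means). The naming rule took only genes whose groups do not overlap, as 33.6% of all genes tested do not. Clec4d is at 0 to 3.87 CPM in sham and 195 to 272 in MCAO. The high sham level of Mgp comes mostly from single barcodes.

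Among 21 cytokine and chemokine genes tested, 11 rose and none fell, with a median log2 change of 1.18. Cxcl2, a neutrophil attractant, stood at 64.8, 196 and 58.1 CPM in sham and 2642, 1605 and 1924 in MCAO (4.37 ± 0.49, adjusted p = 0.00707). Without sham library 1 the adjusted p of Cxcl2 was 0.0509. Ccl6, a monocyte attractant made by myeloid cells, went from 851 ± 77.4 to 1932 ± 193 CPM (1.18 ± 0.10, adjusted p = 1.01e-12). Vegfa, the vascular growth factor, rose from 3.78 ± 3.88 to 25.3 ± 7.45 CPM (2.57 ± 0.65, adjusted p = 0.00364, and 0.0549 with DESeq2). Ccl2, the ligand of CCR2, and Tnf also rose, by 1.83 ± 0.13 and 0.59 ± 0.19 on the log2 scale (chosen after their values were seen).

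Receptors for attractants and growth factors moved in both directions, with 7 of 15 higher and 3 lower and a median of 1.05. C5ar1, the receptor of the complement fragment C5a, stood at 133, 82.7 and 77.4 CPM in sham and 727, 599 and 598 in MCAO (2.68 ± 0.17, adjusted p = 1.8e-15). Cx3cr1, the fractalkine receptor of nonclassical monocytes and microglia, went the other way, from 500.2, 377 and 426 CPM to 181, 143 and 219 (-1.27 ± 0.15, adjusted p = 5.65e-08). Cxcr4, which retains cells in the bone marrow, was lower by -0.89 ± 0.31 (adjusted p = 0.0387, and 0.0549 to 0.311 in each leave-one-out fit but the one without MCAO library 2), and Csf1r, the receptor of macrophage colony-stimulating factor, by -0.51 ± 0.13 (adjusted p = 0.00298). Of 6 microglial markers tested, 2 were lower (Gpr34 and Olfml3, against 7.77% of all genes) and 4 were not called, with a median of -0.24. The 8 microglial genes summed to 1267 to 1535 CPM in sham and 875 to 1117 in MCAO members (6249 and 4523 in other barcodes), and their part in these values was not tested. Without border macrophage barcodes Csf1r changed by -0.18 (adjusted p = 0.441), and among members with a Ly6c2 UMI Csf1r changed by -0.21 (0.464) and Cx3cr1 by -0.72 (0.0752). DESeq2 did not call Cxcr4 (adjusted p = 0.134).

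Of 12 adhesion genes, 3 rose and 3 fell, with a median of 0.05. Itga5, the fibronectin receptor subunit, had 1 UMI over all sham members and stood at 51.6, 45.0 and 49.4 CPM in MCAO (4.98 ± 0.67, adjusted p = 2.41e-07). Itgb2, the shared beta chain of leukocyte integrins, rose by 0.88 ± 0.14. Itgal, its partner in LFA-1, fell from 110 ± 35.9 to 53.1 ± 5.80 CPM (-1.09 ± 0.22, adjusted p = 3.17e-04, and 0.0536 without sham library 1), and Selplg, a ligand for rolling adhesion, fell from 418 ± 36.8 to 264 ± 13.3 CPM (adjusted p = 1.88e-04).

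Matrix and repair genes rose in 8 of 13 cases with none lower (median 1.17). Thbs1 (thrombospondin 1), which is also on the list of classical monocyte genes, stood at 7.197, 46.5 and 15.5 CPM in sham and 483, 351 and 337 in MCAO (4.23 ± 0.36, adjusted p = 5.93e-06). Mmp19, a metalloproteinase, rose from 2.92 ± 2.65 to 41.8 ± 8.74 CPM (3.84 ± 0.62), and Adam8, a sheddase of leukocytes, from 9.19 ± 3.51 to 100.4 ± 3.30 (3.36 ± 0.35, adjusted p = 8.63e-10). Tgm2, which cross-links matrix proteins, rose from 31.6 ± 12.9 to 280.1 ± 33.7 CPM (3.20 ± 0.23), Smox (spermine oxidase) from 18.6 ± 10.9 to 151 ± 20.4 (2.97 ± 0.29), and Rab20, a small GTPase, from 11.3 ± 10.1 to 92.2 ± 10.9 (2.89 ± 0.37). AA467197, the mouse Nmes1 gene, stood at 25.2, 0 and 7.74 CPM in sham and 616, 733 and 695 in MCAO (5.77 ± 0.29, adjusted p = 4.61e-12). It was held by 3 sham and 255 MCAO members.

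Spp1 (osteopontin) stood at 28.8, 82.7 and 186 CPM in sham and 3212, 3822 and 2601 in MCAO (5.02 ± 0.52, adjusted p = 0.00548). Its share of barcodes with a UMI was not above that of unrelated cells. After thinning, 57.9% ± 8.36 of MCAO members and 59.1% ± 7.29 of MCAO endothelial barcodes held Spp1, and its level in MCAO members was 0.518 times that in all other MCAO barcodes. How much of this share of barcodes with Spp1 is background RNA was not tested. Single MCAO members held up to 970, 1289 and 335 Spp1 UMIs in the 3 libraries, against medians of 4, 3 and 3, and whether these members make Spp1 was not tested.

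Genes of low oxygen and glycolysis rose in 11 of 24 cases and fell in 1 (median 0.62). Hif1a, the oxygen-regulated transcription factor, stood at 36.0, 31.0 and 42.6 CPM in sham and 177, 177 and 179 in MCAO (2.26 ± 0.23, adjusted p = 2.57e-10). The 3 MCAO libraries were nearly equal. Pkm (pyruvate kinase) rose by 1.10 ± 0.11 and Ldha (lactate dehydrogenase) by 1.17 ± 0.13, while the stress gene Ndrg1 fell by 0.86 ± 0.29 on the log2 scale (adjusted p = 0.035, and 0.187, 0.164, 0.0679 and 0.0568 without sham library 2, sham library 3, MCAO library 1 or MCAO library 3). Hilpda, an inhibitor of fat breakdown on lipid droplets, rose from 7.14 ± 3.23 to 77.6 ± 10.5 CPM (3.47 ± 0.42), and Plin2, the droplet coat protein, from 197 ± 33.4 to 645 ± 47.9 (1.73 ± 0.14, adjusted p = 3.56e-13). Over the lipid list, 4 of 11 were higher and 3 lower (median 0.25), with the efflux pump Abcg1 (56.4 ± 20.9 to 27.3 ± 9.32 CPM, overlapping groups, adjusted p = 0.0321) and the fatty acid carrier Fabp4 (-0.98 ± 0.32, adjusted p = 0.0309) at the lower end. The adjusted p of Abcg1 was 0.184, 0.291, 0.0541 and 0.08 without sham library 2, sham library 3, MCAO library 1 or MCAO library 3, and that of Fabp4 was 0.457, 0.0615 and 0.0566 without sham library 3, MCAO library 1 or MCAO library 3. Another carrier, Fabp5, rose by 2.06 ± 0.54 (adjusted p = 0.0381), a call lost without sham library 1 (adjusted p = 0.141) or 3 (0.156), without border macrophage barcodes (0.127) and among members with a Ly6c2 UMI (0.0716). DESeq2 did not call Abcg1 (adjusted p = 0.114), Fabp4 (0.117) or Ndrg1 (0.124).

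Targets of NRF2 and genes of heme and iron rose in 9 of 13 cases and fell in 1 (median 0.75). Slc7a11, the cystine importer, stood at 21.6, 51.7 and 58.1 CPM in sham and 276, 299.7 and 282 in MCAO (2.74 ± 0.22, adjusted p = 4.97e-13). Ftl1, the ferritin light chain, went from 7430 ± 421 to 12329 ± 275 CPM (0.73 ± 0.07). Mt2 (metallothionein) rose by 1.90 ± 0.43 (adjusted p = 0.0252), but its adjusted p was 0.0649, 0.139 and 0.0925 without sham library 1, 2 or 3. The one gene that fell, Blvrb (biliverdin reductase B), went from 136 ± 11.8 to 83.3 ± 14.5 CPM (adjusted p = 0.00636, and 0.0858 without sham library 1). Blvrb changed by -0.47 without border macrophage barcodes (adjusted p = 0.15), by -0.39 among members with a Ly6c2 UMI (0.401) and by -0.20 with the rule on thinned barcodes (0.554). Mt2 did not pass among members with a Ly6c2 UMI (1.38, adjusted p = 0.308) or with Ccr2 or Ly6c2 (1.83, 0.152).

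Stress genes rose in 6 of 13 cases of the endoplasmic reticulum list with none lower (median 0.57). Hspa5, the main chaperone there, rose by 0.89 ± 0.16 (adjusted p = 0.00216, and 0.0526 without sham library 2) and the factor Ddit3 by 1.12 ± 0.25. Asns (asparagine synthetase) had no UMI in sham and 55.9, 27.5 and 29.5 CPM in MCAO, at least 3.16 higher on the log2 scale by the floor of 3 UMIs. Among glucocorticoid-responsive genes 5 of 12 rose and 1 fell (median 1.04), with Mt2 and Il1r2 highest and Txnip lower by -0.88 ± 0.19. With the rule on thinned barcodes Txnip changed by -0.16 (adjusted p = 0.61), and among members with a Ly6c2 UMI by -0.64 (0.0935). Of 12 NF-kB subunits and feedback genes, Nfkb2 (1.44 ± 0.38), Relb (1.34 ± 0.41) and the inhibitor Nfkbia (0.77 ± 0.10) rose and none fell (median 0.75). The calls of Nfkb2 and Relb were lost without sham library 1 (adjusted p = 0.0512 and 0.0764) or 3 (0.0569 and 0.0993) and among members with a Ly6c2 UMI (0.0597 and 0.138), where Ddit3 was not called either (0.0639). Immediate early genes rose in 7 of 17 cases and fell in 1 (median 0.18), led by Ier3 (from 81.4 ± 22.7 to 423 ± 21.3 CPM, log2 change 2.403 ± 0.17) and Dusp1, the most abundant at 3296 ± 174 CPM in MCAO (0.97 ± 0.09).

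**Figure D4:**
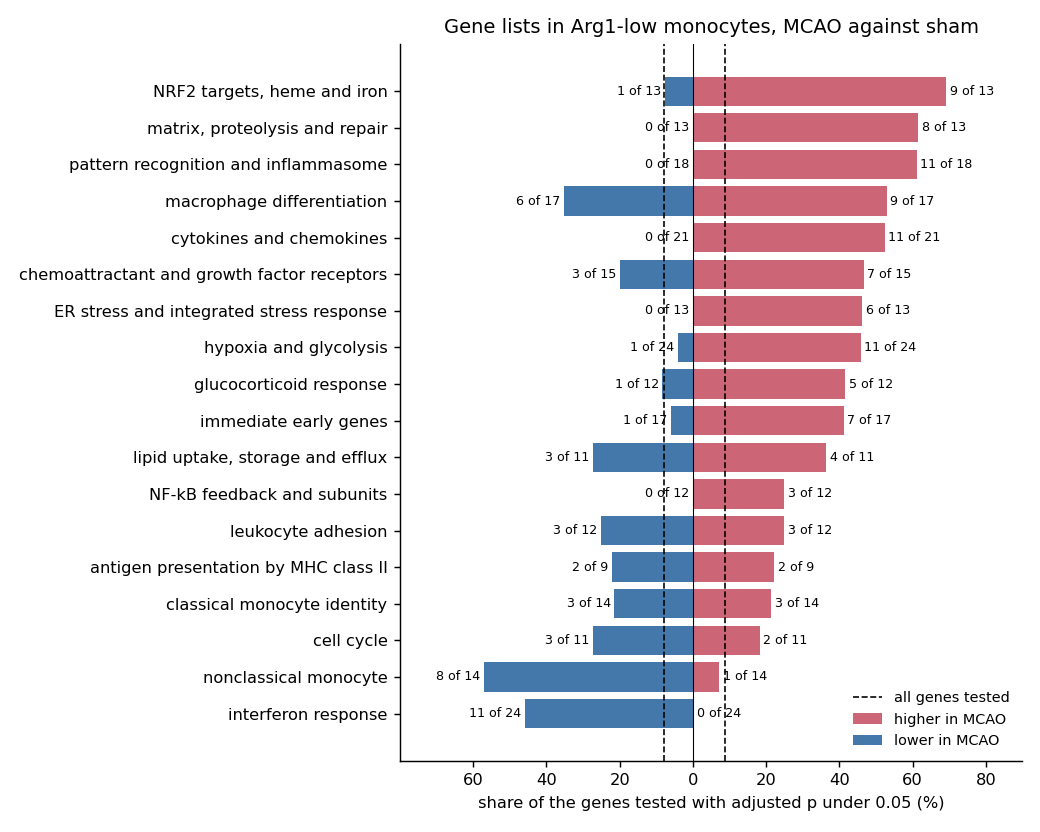
Share of tested genes of each of 18 lists (y axis) that were higher (right) or lower (left) in MCAO than in sham Arg1-low monocytes at an adjusted p under 0.05 (x axis, %), with counts printed beside the bars and the shares over all genes tested, 8.72% and 7.77%, as dashed lines. Pattern recognition (11 of 18) and NRF2 targets (9 of 13) are mostly higher, and nonclassical monocyte genes (8 of 14) and interferon genes (11 of 24) are mostly or often lower.

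Genes of nonclassical monocytes fell in 8 of 14 cases and rose in 1, with a median log2 change of -0.93. Spn (CD43, a sialic acid-rich surface protein) stood at 57.6, 56.8 and 73.6 CPM in sham and 20.1, 18.3 and 22.6 in MCAO (-1.63 ± 0.30, adjusted p = 6.78e-05). Cd300e, an activating receptor of these cells, stood at 36.0, 31.0 and 62.0 CPM and 15.7, 14.2 and 14.7 (-1.55 ± 0.36, adjusted p = 0.00141, and 0.0923 without sham library 3). Eno3 fell by 1.51 ± 0.24 on the log2 scale. The groups did not overlap for any of these 3 genes, which had the lowest changes called on the list. Of all genes tested, 33.6% did not overlap. Nr4a1, the factor on which nonclassical monocytes depend and an immediate early gene as well, was the one that rose, by 0.48 ± 0.16 (adjusted p = 0.0403). Its call was lost in all leave-one-out fits but the one without sham library 3, with adjusted p-values of 0.0927 to 0.281, with DESeq2 (0.14), without border macrophage barcodes (0.233) and among members with a Ly6c2 UMI, where its change was near 0 (0.999). With the rule on thinned barcodes Cd300e changed by -0.69 (adjusted p = 0.192).

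Classical monocyte genes did not move one way, with 3 of 14 higher, 3 lower and a median of 0.03. Lyz2, the most abundant, stood at 16463 ± 1181 CPM in sham and 15227 ± 413 in MCAO (adjusted p = 0.278). Vcan (versican) rose from 33.6 ± 7.196 to 66.4 ± 10.8 CPM (adjusted p = 0.0121, and 0.0665, 0.0873 and 0.0545 without sham library 1, sham library 3 or MCAO library 1), and Mgst1, a membrane glutathione transferase, fell from 354 ± 39.0 to 208 ± 20.9 (-0.77 ± 0.14, adjusted p = 6.39e-05). Clec12a, an inhibitory receptor that senses uric acid crystals, had the highest level relative to other cells among the 10 lower genes named. It stood at 414, 336 and 290.4 CPM in sham and 109, 128 and 119.7 in MCAO (-1.55 ± 0.15, adjusted p = 1.89e-10), and its sham level was 28.8 times that in all other sham barcodes. Hpgd, which degrades prostaglandins, stood at 104, 129 and 124 CPM and 33.2, 30.8 and 40.8 (-1.75 ± 0.23, adjusted p = 1.07e-07). With the rule applied to barcodes thinned to 1500 UMIs the change was -0.68 for Hpgd (adjusted p = 0.0927) and 0.44 for Vcan (0.187). Among members with a Ly6c2 UMI it was -0.47 for Hpgd (0.566), 0.57 for Vcan (0.229) and -0.29 for Lyz2 (0.0213). Vcan did not pass without border macrophage barcodes (0.76, adjusted p = 0.0796), with at least 6 marker UMIs (0.79, 0.0674) or with DESeq2 (0.0818).

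The other genes at the lower end were the surface receptor Slamf9 (161 ± 25.1 to 52.5 ± 12.3 CPM, -1.60 ± 0.21), the pentose phosphate enzyme G6pdx (97.9 ± 21.1 to 32.7 ± 8.61, -1.57 ± 0.26), the semaphorin and VEGF co-receptor Nrp1 (142 ± 49.1 to 46.8 ± 9.51, -1.57 ± 0.23), Tmcc3 (-1.59 ± 0.29) and the selenoprotein Selm (-1.87 ± 0.25). In sham, Selm, Tmcc3 and Nrp1 were lower in members than in all other barcodes (0.537, 0.830 and 0.818 times). With the rule on thinned barcodes Slamf9 changed by -0.17 (adjusted p = 0.774) and Tmcc3 by -0.28 (0.613), and among members with a Ly6c2 UMI Slamf9 changed by -1.15 (0.0562). Dynlt1b (-2.17 ± 0.28) and Psme2b (-1.75 ± 0.26) have near-identical relatives, so the counts assigned to them are uncertain. Mgp (matrix Gla protein) had the largest drop of the 10, -4.02 ± 0.29, but up to 96.6% of its UMIs in a sham library came from 1 barcode. Without the top barcode of each library the log2 ratio of Mgp was -1.61, and it was 1.39 among members with a Ly6c2 UMI.

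The interferon list fell in 11 of 24 cases and none rose (7.77% of all genes fell), with a median of -0.48. Ifit3, an antiviral protein induced by interferon, stood at 274, 346 and 426 CPM in sham and 169, 225 and 158 in MCAO (-0.92 ± 0.16, adjusted p = 1.5e-04). Mx1, an antiviral GTPase, fell by 1.38 ± 0.40 on the log2 scale (adjusted p = 0.0164), but the sham libraries ranged from 15.5 to 77.5 CPM and the call was lost without sham library 1 (adjusted p = 0.142), sham library 2 (0.231) or MCAO library 1 (0.0549). Ifitm3, the most abundant gene of the list, was at 6058 ± 208 CPM in sham and 5408 ± 89.7 in MCAO (adjusted p = 0.118). The regulator Irf7 went from 742 ± 53.6 to 551 ± 15.9 (adjusted p = 0.00318). Isg15 stood at 525, 563 and 573 CPM in sham and 529, 783 and 644 in MCAO (0.24 ± 0.12, adjusted p = 0.215), and Rsad2 did not pass either (0.30 ± 0.21, adjusted p = 0.371). Irf7, Isg15 and Rsad2 were chosen after their values were seen. Where the rule was applied to barcodes thinned to 1500 UMIs, 5 genes of the list fell, 2 rose, Ifit3 changed by -0.07 (adjusted p = 0.886) and Mx1 by -0.46 (0.37). Ifitm3 was lower among members with a Ly6c2 UMI (-0.27, adjusted p = 0.0316) and without border macrophage barcodes (-0.26, 0.0258).

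Promoter windows of Ifit3 and Isg15 are shown because the genes are known interferon targets, of which the first fell and the second did not pass. Ifit3 lies at chr19:34583279-34583528 on the plus strand and Isg15 at chr4:156200819-156201068 on the minus strand (RefSeq, GRCm38.p6, 5′ to 3′ on the strand of the gene). Capitals mark matches to the 4 motifs given above.
Ifit3: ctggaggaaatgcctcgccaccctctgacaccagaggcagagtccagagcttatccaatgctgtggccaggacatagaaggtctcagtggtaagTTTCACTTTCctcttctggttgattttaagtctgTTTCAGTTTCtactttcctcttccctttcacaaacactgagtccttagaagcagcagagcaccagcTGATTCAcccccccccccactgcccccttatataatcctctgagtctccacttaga
Isg15: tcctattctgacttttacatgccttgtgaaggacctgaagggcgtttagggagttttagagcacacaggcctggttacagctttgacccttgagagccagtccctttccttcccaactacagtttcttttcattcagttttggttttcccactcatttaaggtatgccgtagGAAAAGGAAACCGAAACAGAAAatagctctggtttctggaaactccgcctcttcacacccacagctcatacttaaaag
Ifit3 holds 2 interferon elements, at positions -156 to -147 and -122 to -113 on the opposite strand, and 1 AP-1 match at -56 to -50. Isg15 holds 3 overlapping interferon elements between positions -78 and -57. Of the 24 interferon genes 16 had a window, and 7 of these (43.8%) held the element, against 2.98% of all windows. Among the 11 genes that fell, 6 had a window and 2 of them (33.3%), Ifit3 and Bst2, held it.

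Macrophage genes split, with 9 of 17 higher and 6 lower (median 0.33). Msr1, the scavenger receptor, rose from 72.5 ± 37.8 to 244 ± 26.4 CPM (1.68 ± 0.22, adjusted p = 2.01e-06) and the lysosomal protease Ctsl from 164 ± 11.1 to 486 ± 78.7 (1.57 ± 0.15). Mrc1, the mannose receptor, fell from 102 ± 32.8 to 27.7 ± 3.48 CPM (-1.83 ± 0.26, adjusted p = 5.63e-07) and the complement gene C1qa from 2345 ± 502 to 1023 ± 60.5 (-1.19 ± 0.13, adjusted p = 4.43e-05). Apoe stood at 11210, 13136 and 8352 CPM in sham and 6223, 6150.5 and 6289.8 in MCAO (-0.81 ± 0.17, adjusted p = 0.0291, and 0.13, 0.102 and 0.0925 without sham library 1, MCAO library 1 or MCAO library 3). Border macrophage markers, which share Mrc1 with this list, were lower as well. Their 8 genes summed to 422 to 672 CPM in sham and 204 to 267 in MCAO members (326 and 347 in other barcodes), and all 3 that were tested (Mrc1, Ms4a7 and Pf4) fell. Without members that held 3 or more UMIs of these markers, 2 macrophage genes fell and Apoe changed by -0.26 (adjusted p = 0.721). Mrc1 is one of the markers used to leave out members, so its own value there was set in part by that choice. Mrc1 changed by -0.58 (adjusted p = 0.376) with at least 6 marker UMIs, and with the rule on thinned barcodes Mrc1 changed by -0.29 (0.634), C1qa by -0.23 (0.622) and Apoe by 0.52 (5.46e-04). Among members with a Ly6c2 UMI none fell, C1qa changed by -0.20 (adjusted p = 0.529) and Apoe by 0.80 (adjusted p = 0.0207).

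Antigen presentation was divided in the same way. Of 9 genes tested 2 rose and 2 fell (median -0.35). The costimulatory ligands Cd86 (87.8 ± 30.4 to 218 ± 10.9 CPM, 1.35 ± 0.19, adjusted p = 9.17e-07) and Cd80 (5.84 ± 5.30 to 24.98 ± 7.57 CPM, adjusted p = 0.0114, and 0.0532 and 0.123 without sham library 1 or 3) rose. Cd74 stood at 13901, 17657 and 15500 CPM in sham and 10710, 12512 and 13744 in MCAO (-0.35 ± 0.10, adjusted p = 0.03, and 0.0986 and 0.194 without sham library 2 or 3), and the peptide exchange factor H2-DMa fell by 0.42 ± 0.12 on the log2 scale (adjusted p = 0.014, and 0.249 and 0.0538 without sham library 2 or MCAO library 1). H2-Aa did not pass (-0.64 ± 0.18, adjusted p = 0.0812; named after its value was seen). In members with a Ly6c2 UMI the change of Cd74 was 0.77 (adjusted p = 4.41e-06) and that of H2-DMa 0.10 (0.718), and with the rule on thinned barcodes they were 1.33 (0.0469) and 0.42 (0.173). Without border macrophage barcodes the changes were -0.07 (adjusted p = 0.921) and -0.25 (0.413), and with at least 6 marker UMIs -0.16 (0.831) and -0.19 (0.781). DESeq2 did not call Cd74 (adjusted p = 0.0806), H2-DMa (0.0859) or Cd80 (0.0868). The direction for Apoe and Cd74 thus depended on which members were counted.

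Cell cycle genes gave 2 higher and 3 lower of 11 tested (median -0.88). Cdkn1a, the p21 inhibitor of division, stood at 273.5, 279 and 252 CPM in sham and 1039, 1010.5 and 1159 in MCAO (1.998 ± 0.12, adjusted p = 2.52e-17). The mitotic genes Ccnb2 (39.9 ± 1.33 to 5.12 ± 3.95 CPM, -2.91 ± 0.48) and Birc5 (50.8 ± 15.3 to 7.33 ± 6.24, -2.78 ± 0.51) fell. They rest on 29 and 38 UMIs over all sham members.

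RNA of other cell types in the members was also summed. Endothelial markers came to 1123 to 1369 CPM in sham and 578 to 807 in MCAO members (11430 and 5463 in other barcodes), and neutrophil markers to 128 to 212 and 198 to 226 CPM, with Ly6g at 0 UMIs in sham. T and NK cell markers came to 3.60 to 7.74 CPM in sham and 64.7 to 71.1 in MCAO. Of these, Klrd1 (CD94), an NK cell receptor chain named after its value was seen, was held by 2 of 164 sham and 53 of 811 MCAO members, and Ncr1 had no UMI in either group. Basophil and mast cell markers came to 116 to 727 CPM in sham and 42.5 to 67.4 in MCAO. Of the 146 sham UMIs of Mcpt8, 145 lay in 1 member. Hdc was called lower, but up to 88.2% of its UMIs in a sham library came from 1 member. Without the top member of each library Hdc averaged 19.9 CPM in sham and 34.9 in MCAO. Erythrocyte markers came to 3.87 to 43.2 and 67.4 to 97.1 CPM, and both genes tested (Hba-a1 and Hbb-bs) rose. Dendritic cell markers came to 6416 to 6764 and 4239 to 5498 CPM, with Batf3 and Cst3 lower and Cd24a higher. Oligodendrocyte markers came to 263 to 349 and 382 to 636 CPM, with Mag and Mbp higher. The choroid plexus list, mostly Ttr, came to 3066 to 3834 and 3669 to 5773 CPM. The part of these cells in the changes above was not tested.

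Within the MCAO libraries, Arg1-low monocytes were compared with the 483 barcodes that met the same limits but held 2 or more Arg1 UMIs. Of 7201 genes tested (edgeR with library as a block), 875 were higher (12.2%) and 933 lower (13%) in the Arg1-positive barcodes, and the median log2 difference was -0.02. Without MCAO library 2 there were 556 higher and 675 lower genes. In Arg1-positive barcodes 7 of 9 MHC class II, 14 of 14 nonclassical and 18 of 24 interferon genes were lower, and 18 of 25 genes for low oxygen and glycolysis were higher. Of 23 cytokine and chemokine genes 11 were higher and 4 lower (Tnf, Il1b, Cxcl16 and Tgfb1), with a median of -0.14. Arg1-positive barcodes were also deeper, with a median of 5570 to 6767 UMIs against 3798 to 5046, and the part of depth in the differences was not tested. Arg1 itself stood at 42.95, 31.3 and 27.3 CPM in the Arg1-low and 4984, 5330 and 6481 in the Arg1-positive profiles, which the split fixed.

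H2-Aa stood at 2355, 2870 and 3282 CPM in Arg1-low and 296, 394 and 502 in Arg1-positive profiles of MCAO libraries 1, 2 and 3 (log2 difference -2.85 ± 0.06, adjusted p = 1.34e-22). H2-Ab1 and H2-Eb1 differed by -2.88 ± 0.06 and -2.98 ± 0.06 and Cd74 by -2.28 ± 0.14 (adjusted p = 0.00517, and 0.0541 without MCAO library 2). In all, 7 of 9 genes of the list were lower in Arg1-positive cells and none higher (median -1.85). Among barcodes with a Ly6c2 UMI the difference of Cd74 was -2.02 (adjusted p = 0.127), that of H2-Ab1 -2.61 (0.134), that of H2-Eb1 -2.67 (0.116) and the difference of H2-Aa was -2.57 with an adjusted p of 0.109.

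All 14 nonclassical genes were lower in the Arg1-positive barcodes (median -2.42). Adgre4, an adhesion receptor of nonclassical monocytes, stood at 51.5, 50.3 and 39.3 CPM in Arg1-low and 0, 1.82 and 2.98 in Arg1-positive profiles. Cd300e stood at 15.5, 14.0 and 14.5 CPM and had no UMI in any Arg1-positive profile. Classical genes were divided, with 5 higher and 6 lower of 14 (median -0.06). Ifitm6, an interferon-induced membrane protein, was lower (474, 493 and 470 CPM against 70.6, 68.1 and 103, -2.57 ± 0.10), while Fn1 (fibronectin) was higher (256 ± 46.6 against 845 ± 64.8 CPM, 1.73 ± 0.07). Ly6c2 and Plac8, which the rule used, averaged 864 and 3601 CPM in Arg1-low and 439 and 1095 in Arg1-positive profiles. Other genes at the Arg1-low side were Ly6i, a Ly6 family member (-2.39 ± 0.15), Ear2, an eosinophil-associated ribonuclease (-2.27 ± 0.14), the integrin chain Itgb7 (-2.14 ± 0.14) and Tmem176a (-2.18 ± 0.14).

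The chemokine Ccl24 (eotaxin 2), an eosinophil attractant, showed the largest difference in the other direction. It stood at 18.0, 18.1 and 21.4 CPM in Arg1-low and 379, 353 and 285 in Arg1-positive profiles (4.13 ± 0.13, adjusted p = 3.63e-18). Ecm1, an extracellular matrix protein, stood at 209, 189 and 184 CPM against 919, 951 and 961 (2.28 ± 0.06), and Ccl6 at 2118, 1803 and 1793 against 7330, 6457 and 7109 (1.87 ± 0.04, adjusted p = 3.57e-21). The naming rule required the same direction in all 3 libraries, which 3839 of 7201 genes tested showed. Ccl7 (2.17 ± 0.06), the cytokine Mif (1.68 ± 0.06), Hilpda (1.65 ± 0.11), the NAD-consuming enzyme Cd38 (1.64 ± 0.12) and Cxcl3 (1.71 ± 0.20) were higher too. Ccl7 did not pass without border macrophage barcodes (1.71, adjusted p = 0.136), among barcodes with a Ly6c2 UMI (2.49, 0.0619) or with thinned barcodes (2.58, 0.0595), and Cxcl3 did not with at least 6 marker UMIs (1.74, 0.0912) or without the library block (0.0568). Spp1 was higher by 2.27 ± 0.21 (adjusted p = 0.0277), a call lost without MCAO library 1 (adjusted p = 0.182) or border macrophage barcodes (0.0579), at 3158, 3786 and 2562 CPM against 16914, 13677 and 14889. Ccl17, a T cell attractant, was lower (-3.03 ± 0.18), but in Arg1-low profiles it stood at 55.8, 63.5 and 484 CPM. A single barcode gave up to 52.0% of the Ccl17 UMIs of a library, and without the library block its adjusted p was 0.311.

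**Figure D5:**
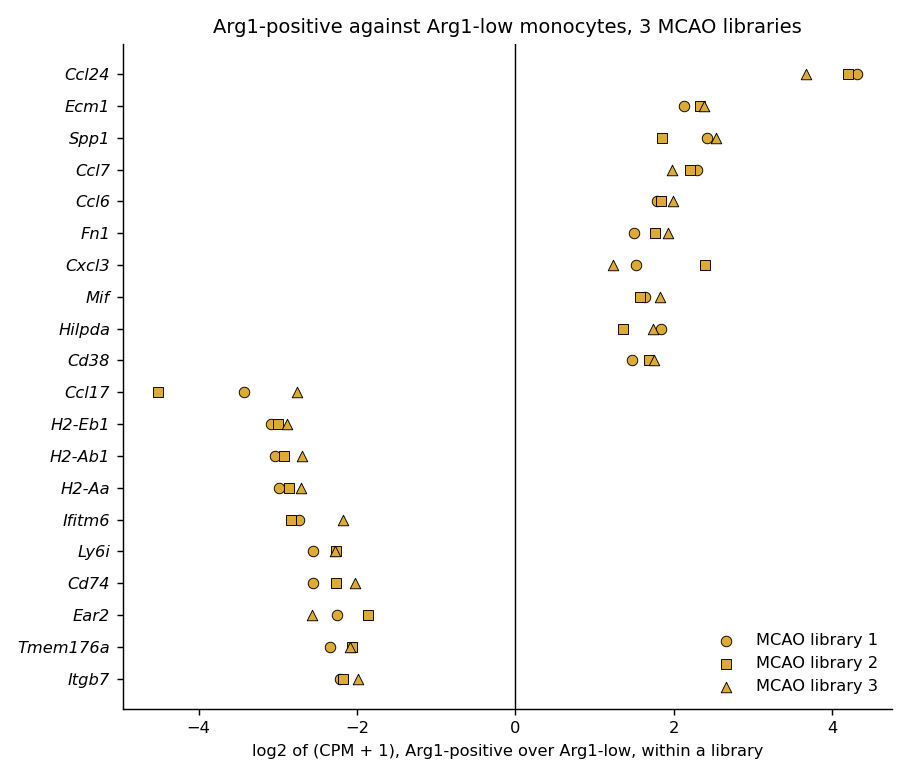
Log2 of the ratio of CPM + 1 in Arg1-positive over Arg1-low barcodes of the same MCAO library (x axis; circle, square and triangle: libraries 1, 2 and 3) for the 10 highest and 10 lowest genes by the naming rule. The naming rule took only genes that differ the same way in all 3 libraries, as 3839 of 7201 genes tested do. Ccl24 is the highest (379 against 18.0 CPM in library 1) and Ccl17 varies most among the lower genes.

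Genes that rose between sham and MCAO in Arg1-low cells did not all differ the same way between the 2 MCAO populations. Clec4d stood at 267, 242 and 192 CPM in Arg1-low and 267, 209 and 239 in Arg1-positive profiles (0.03 ± 0.09, adjusted p = 0.862), and Il1b at 820.3, 738 and 909 against 595, 611 and 668 (-0.39 ± 0.06, adjusted p = 5.79e-06). Clec4n (0.98 ± 0.06) and Thbs1 (0.996 ± 0.06) were higher in Arg1-positive cells. Over the lists, 18 of 25 genes of low oxygen and glycolysis were higher and 1 lower (median 0.93), 18 of 24 interferon genes were lower and none higher (median -0.63), 14 of 17 immediate early genes lower and 1 higher (-0.69), and 10 of 12 NF-kB genes lower (-0.71). The interferon gene Ifit3 differed by -1.13 ± 0.11 and the glycolytic Gapdh by 1.02 ± 0.05. Barcodes with 3 or more border macrophage UMIs made up 31.7%, 30.6% and 20.1% of Arg1-positive and 7.17%, 6.97% and 7.36% of Arg1-low barcodes in these libraries, and Mrc1 was higher by 0.53 ± 0.19 in the former.

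The change from sham to MCAO in Arg1-low monocytes was last compared with that in barcodes holding 50 or more UMIs of S100a8 and S100a9, genes abundant in neutrophils and some monocytes (114 in sham and 363 in MCAO). These barcodes were shallower, with a median of 1983 to 2953 UMIs in sham and 1760 to 2212 in MCAO. The interaction was tested for 4022 genes with library as a block. The change was more positive in Arg1-low monocytes for 116 genes (2.88%) and more negative for 102 (2.54%). With scaling by total counts alone these numbers were 66 and 132, and without sham library 1 they were 41 and 42. The more positive count was 50 without MCAO library 1 and 64 without MCAO library 3.

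The genes with the most positive difference were low in sham Arg1-low monocytes and already present in sham S100a8 and S100a9 high barcodes. In this fit Clec4d averaged 2.04 ± 1.78 CPM in sham and 192 ± 30.8 in MCAO Arg1-low cells, and 221 ± 39.2 and 615 ± 109 in the S100a8 and S100a9 high barcodes (difference of log2 changes 4.82 ± 0.58, adjusted p = 2.28e-07). Il1b averaged 63.8 ± 5.34 and 677 ± 73.3 CPM in the former and 2273 ± 125 and 4109 ± 160 in the latter (2.54 ± 0.26, adjusted p = 8.16e-09). The level in Arg1-low cells stayed below that of the other population in each group for both genes. For Clec4n (14.0 and 386 CPM in Arg1-low, 13.9 and 361 in the other cells) and Cd14 (143 and 1213, 316 and 3236) the difference did not pass (0.11 ± 0.83, adjusted p = 0.975, and -0.27 ± 0.28, adjusted p = 0.699). Ccl3, a macrophage chemokine, was the reverse case. It averaged 603 ± 101 and 505 ± 164 CPM in sham and MCAO Arg1-low cells and 48.8 ± 49.97 and 1997 ± 581 in the S100a8 and S100a9 high barcodes (-5.66 ± 0.42, adjusted p = 4.46e-08).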

How the data were processed

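Single-cell 3′ RNA libraries (Chromium) were made from mouse brain after papain digestion for 30 min at 37 °C, a 40 µm strainer and 30% Percoll, per the labels' protocols. The deposited values are UMI counts per gene and barcode, which the authors made with Cell Ranger and STAR on mm10, per the submitters' processing notes. Their versions and the cell-calling settings were not given in the sources used here. Of 58528 barcodes, 15 with under 300 genes and 1298 with over 10% mitochondrial counts were removed.

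Members were counted by the limits given in the report, and their counts were summed per library. The members and the 18 gene lists were chosen with earlier results of these data known. Differences were tested with edgeR 4.0.16 in R 4.3.3 (filterByExpr, TMM scaling, robust quasi-likelihood fit, Benjamini-Hochberg adjustment over all genes tested, threshold 0.05), without a block between sham and MCAO and with library as a block elsewhere. The 21 genes of the rule stayed in library sizes and were not tested. The fits were tested on simulated data. Shares were compared with exact two-sided permutation tests (scipy 1.17.1), and intervals cover counting error only.

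Genes named are the 15 highest and 10 lowest changes between sham and MCAO. Between Arg1 populations they are 10 and 10, and of the interaction 6 and 6. All had an adjusted p under 0.05 and a mean of at least 50 CPM. The first comparison also required no overlap of the groups, and the second the same direction in all 3 libraries. Both required a level of at least 50% of that in other barcodes where the gene is higher. From each list came up to 2 highest and 2 lowest called genes and the most abundant gene tested. Others were chosen after their values were seen, as the text says. Doublets were kept, since the labels do not say how they were treated, and 6.48% to 9.42% of barcodes per library were called by an own simulation-based caller in an alternative. The other alternatives were DESeq2 1.42.0, RLE scaling, total counts, no count filter, a replicate block, other limits of the rule and leaving out each library. Some genes are not reported here.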

Additional observations from a re-analysis of the deposited data

Results flagged for a closer look

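For 12 genes the change from sham to MCAO differed between Arg1-low monocytes and the S100a8 and S100a9 high barcodes of the same libraries, by edgeR's test of the interaction with library as a block. Values are the difference of the log2 changes (Arg1-low minus S100a8 and S100a9 high) with its SE, and n is 3 libraries a group.

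The difference was positive for 6 genes. It was 6.76 ± 0.44 for AA467197 (adjusted p = 1.49e-10), which averaged 8.94 CPM in sham and 553 in MCAO Arg1-low cells and 478 and 246 in the S100a8 and S100a9 high barcodes. Clec4d differed by 4.82 ± 0.58 (adjusted p = 2.28e-07). Thbs1, thrombospondin 1, differed by 3.075 ± 0.44 (adjusted p = 7.51e-06), at 19.1 and 317 CPM against 160.2 and 328. Il1rn, the interleukin 1 antagonist, differed by 2.91 ± 0.56 (adjusted p = 5.28e-04, and 0.0526 without sham library 1), at 5.16 and 223 CPM against 128 and 654. Il1b differed by 2.54 ± 0.26 (adjusted p = 8.16e-09), and Lrg1, a glycoprotein of neutrophil granules, by 2.11 ± 0.41 (adjusted p = 0.00315), at 31.2 and 126 CPM against 2381 and 2266.

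The difference was negative for the other 6. Ccl3 differed by -5.66 ± 0.42 (adjusted p = 4.46e-08). Tgif1, a transcriptional repressor, differed by -4.205 ± 0.89 (adjusted p = 0.00184), at 39.0 and 71.9 CPM against 3.40 and 127. P2ry6, a receptor for UDP, differed by -3.80 ± 0.94 (adjusted p = 0.00833, and 0.0507 and 0.0735 without sham library 1 or 2), at 127 and 97.9 CPM against 3.395 and 39.7. Ddit4, a stress-induced inhibitor of mTOR signalling, differed by -3.46 ± 0.73 (adjusted p = 0.00167), at 83.6 and 119.9 CPM against 6.89 and 115. The S100a8 and S100a9 high barcodes of sham libraries 1, 2 and 3 held 152768, 128697 and 103730 UMIs in all. The sham levels of Tgif1, P2ry6 and Ddit4 in these barcodes thus rest on very few molecules, and the sizes of their differences are uncertain. Bcl2a1a, whose near-identical relatives make its counts uncertain, had a fitted difference of -8.615 and Cd72, a B cell co-receptor also found on macrophages, one of -9.435. Neither gene had a UMI in the sham S100a8 and S100a9 high barcodes, so these sizes depend on the prior count and are no bound. Bcl2a1a averaged 90.1 and 174 CPM and Cd72 137 and 76.8 CPM in sham and MCAO Arg1-low cells, and 181 and 89.9 in the MCAO S100a8 and S100a9 high barcodes.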

How the results depend on the processing

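The higher share of Arg1-low monocytes in MCAO held in its direction under each alternative run. Its log2 ratio was 1.35 among Ptprc barcodes, 2.41 for members with a Ly6c2 UMI, 2.38 without border macrophage barcodes and 2.04 to 2.26 with each library left out. The MHC class II share differed by -6.37 to -3.37 points with each library left out, by -1.47 at 1 or more UMIs, and by 0.0335 unthinned.

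Between sham and MCAO, DESeq2 called 340 genes higher and 317 lower, of which 636 of 657 were also called by edgeR, and 315 were lower among members with a Ly6c2 UMI (chosen after seeing the data, as were the border macrophage and Ccr2 or Ly6c2 alternatives). Leaving out a library gave 374 to 465 higher and 321 to 438 lower. Between the Arg1 populations DESeq2 called 233 and 288 and leave-one-out gave 556 to 766 and 675 to 804. The interaction gave 66 more positive with total counts, 56 more negative with DESeq2, and 41 to 154 and 42 to 136 with each library left out.

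Some named genes changed direction. With the rule on barcodes thinned to 1500 UMIs, the change from sham to MCAO was 0.52 for Apoe, 1.33 for Cd74, 0.0666 for Csf1r, 0.42 for H2-DMa, 0.0761 for Klf2 and 1.33 for Mgp. Among members with a Ly6c2 UMI it was 0.80 for Apoe, 0.77 for Cd74, 0.10 for H2-DMa, 1.39 for Mgp and -0.000813 for Nr4a1, and with Ccr2 or Ly6c2 it was 0.99 for Mgp. Between the Arg1 populations the value was 0.15 for C1qa and 0.34 for C1qc with thinned barcodes, 0.19 and 0.58 with a Ly6c2 UMI, and 0.15 for C1qc with at least 6 marker UMIs. The cause was not tested. Of the named genes, 45 of 82, 52 of 78 and 10 of 12 in the 3 comparisons kept their call, or lack of one, in each alternative that tested them. A gene not tested in an alternative was skipped there. Direction was compared only where a gene was called in the main fit or the alternative.

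Deviations of same-numbered sham and MCAO libraries from their group means correlated at 0.0377, -0.00117 and -0.0563. Those of differently numbered libraries correlated at -0.0952 to 0.0955. With 3 libraries a group and few sham members, these values cannot tell whether the numbers pair the samples. With the number as a replicate block, 471 genes were higher and 421 lower between sham and MCAO, and Cxcl2 (adjusted p = 0.0786) and Spp1 (0.0772) lost their calls. With no replicate block 668 and 759 genes differed between the Arg1 populations. The 164 sham members, with 45 to 62 a library, limit the low sham values.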

Other observations

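Genes in this section were chosen after their values were seen. Retnla, a secreted protein of alternatively activated macrophages, stood at 1278, 444 and 472 CPM in sham and 27.96, 0 and 233 in MCAO Arg1-low monocytes, and did not pass edgeR's test (adjusted p = 0.249). Up to 99.4% of its UMIs in a sham library and 100% in an MCAO library came from 1 barcode. Klrd1 stood at 3.60, 5.17 and 0 CPM in sham and 54.2, 59.9 and 64.2 in MCAO, with a log2 change of 4.35 ± 0.55 (adjusted p = 7.36e-08). Ccl17 was held by 40 of 811 MCAO members, with 709 UMIs in all.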
